A study of Mus musculus with 18 samples.

Results

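The comparison set 3 arrays of oocytes labelled XX,Zfy2+Eif2s3y against 3 arrays of XX oocytes, 6 of the 18 arrays of the series, all of batch 1, and described every gene of the array rather than a chosen list. The series covers 6 genotypes with 3 arrays each. Zfy2_Eif2s3y oocytes carry 1 copy of a functional Zfy2 transgene and a multi-copy Eif2s3y transgene. According to the submitters these are contaminated samples, with Eif2s3y in only a proportion of the cells. XX oocytes carry no transgene and served as the normal control. All females were MF1 outbred albino mice of 4 weeks. Fully grown oocytes at the germinal vesicle (GV) stage, arrested before the first meiotic division, were taken 45 to 48 hours after an injection of PMSG, a gonadotrophin that stimulates follicles. They were stripped of cumulus cells and pooled in groups of about 100 from at least 2 females per genotype. The labels call the 3 arrays of a genotype biological replicates, but pools of 1 genotype may share females, so the p-values measure the spread between pools. RNA was amplified and hybridised to Illumina bead arrays, on which each probe's brightness was read with 1 colour. The 3 Zfy2_Eif2s3y arrays all lay on slide 2, as did 1 XX array, while the other 2 XX arrays lay on slide 1.

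Zfy2 and its neighbour Zfy1 are Y-chromosome genes for zinc finger transcription factors, and their X-linked relative Zfx is expressed in most tissues. In male mice the Zfy genes act in spermatogenic cells. An XX oocyte without a transgene has no Y chromosome and so no copy of them. Eif2s3y encodes the gamma subunit of eIF2, the factor that brings the initiator tRNA to the ribosome, and its X-linked copy Eif2s3x supplies the same subunit in females. A fully grown GV oocyte stores messenger RNA and makes little new RNA, so its transcript levels reflect both earlier transcription and decay.

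Signal is given as log2 intensity after background correction and quantile normalisation. A log2 change is the mean of the 3 Zfy2_Eif2s3y arrays minus the mean of the 3 XX arrays. An offset of 16 is added to the corrected signal, and 1 unit is a doubling of that sum. Changes of dim probes are therefore compressed beside those of bright ones, and folds are on the same scale. Signals of different probes cannot be set against each other. In pooled oocytes, fewer cells with a transcript and less transcript per cell cannot be told apart. Probes above background, those with a deposited detection p under 0.05, numbered 19344 to 20292 on Zfy2_Eif2s3y arrays and 18577 to 19286 on XX arrays. The correlation across the genes tested, with 1 probe a gene, was 0.9834 to 0.9853 within Zfy2_Eif2s3y, 0.9789 to 0.9854 within XX, and 0.964 to 0.969 between the groups.

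The probes annotated to the transgenes were examined first. The Zfy2 probe had log2 intensities of 5.49, 6.20 and 6.04 in Zfy2_Eif2s3y oocytes, against 4.46, 4.36 and 4.34 in XX oocytes, where it was on no array above background (at least 2.07-fold higher, adjusted p = 1.38e-04 in limma over all probes kept). One Eif2s3y probe gave 6.14, 5.68 and 6.63 in Zfy2_Eif2s3y oocytes, against 4.29, 4.33 and 4.24 in XX oocytes, again above background on no XX array (at least 2.44-fold higher, adjusted p = 1.09e-05). The second Eif2s3y probe was not above background in either group. Probes of both labelled transgenes were thus above background in every Zfy2_Eif2s3y pool and in no XX pool. The Zfy2 probe was also above background on all 6 arrays of the Zfy1 transgenes, so it does not tell Zfy2 from Zfy1. A Zfy1 probe that was above background on those 6 arrays was so on 1 Zfy2_Eif2s3y array and no XX array. The Eif2s3y probe named first was above background in no other group of the series, while the second was so on all arrays of Zfy2 and of Zfy1_hi oocytes. The relatives did not pass the test. In limma, Zfx changed by 0.25 (adjusted p = 0.593) and Eif2s3x by -0.23 (adjusted p = 0.378). The brightest Zfy1 probe, above background on all 6 arrays, changed by 0.41 (adjusted p = 0.152 in limma). XX oocytes have no Y chromosome and no transgene, so its signal there is not a measure of Zfy1. None of the 10 measured X-linked homologues of Y genes was called by limma (2 lower at an unadjusted p under 0.05).

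The pools carried the markers of oocytes in both groups. All 17 measured oocyte markers were above background on all 6 arrays. Of these, Dazl, a germ-cell RNA-binding protein that promotes translation of stored transcripts, rose (log2 change 0.70 ± 0.14 SE, adjusted p = 0.00476), and Figla, a transcription factor of zona pellucida genes, fell (-0.71, adjusted p = 0.0165) in a call that was lost without Zfy2_Eif2s3y array 3. The zona proteins Zp1, Zp2 and Zp3 changed by 0.12, 0.02 and 0.04, and the secreted factors Gdf9 and Bmp15 by -0.12 and 0.14, none of them called. Among 13 measured granulosa and cumulus markers, 1 was called higher and 2 lower (23.1%, against 11.3% of all genes). Their median log2 change was 0.259. Gata4, a transcription factor of granulosa cells, averaged 5.89 ± 0.17 in Zfy2_Eif2s3y oocytes and 4.68 ± 0.18 in XX oocytes (log2 change 1.21). Cyp11a1, the first enzyme of steroid synthesis, averaged 7.35 ± 0.50 in Zfy2_Eif2s3y oocytes and 8.82 ± 0.10 in XX oocytes (log2 change -1.47), and its call was lost when the gene's probes were averaged. Ptgs2, a prostaglandin synthase of cumulus cells, was above background on no Zfy2_Eif2s3y array (at least 1.52-fold lower, adjusted p = 0.0072). Fshr, the receptor that defines granulosa cells, changed by 0.32 (adjusted p = 0.739), and none of 7 stroma, 2 blood or 4 endothelial markers was called by limma (1 stroma marker higher and 1 endothelial marker lower at an unadjusted p under 0.05). The part of residual follicle cells in the results below was not tested.

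At an adjusted p under 0.05, 1378 of 12184 genes were called different, which is 11.3% of the genes tested: 631 were higher in Zfy2_Eif2s3y oocytes (5.18%) and 747 lower (6.13%). The median change of all genes was -0.0101. A 2-fold or larger difference was reached by 214 of the genes called higher (1.76%) and 218 of those called lower (1.79%). The values of the groups did not overlap for 3707 genes (30.4%), including 1362 of the 1378 called. Because many calls rested on single arrays, a stricter set was used for naming genes. A call is termed stable here when it kept its sign and its adjusted p under 0.05 without each of the 6 arrays in turn, and also with slide fitted as a block. Stable calls numbered 486 (3.99%), of which 190 were higher (1.56%) and 296 lower (2.43%). Their median absolute log2 change was 1.06, against 0.781 for all called genes. In all 486 the groups did not overlap, which fixes their direction on slide 2 alone, where the same 3 arrays faced 1 XX array. With 2 residual degrees of freedom, 74 of them were still called there, 41 higher and 33 lower, and the median change was 0.972 times the pooled one. Every gene named below as having risen or fallen was a stable call unless another status is stated. A bare value in brackets beside a gene is its log2 change, with the adjusted p from the same limma fit. A percent given for a gene list is its share of measured genes called. Over all genes that share is 11.3%, and 3.99% for stable calls.

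**Figure D1:**
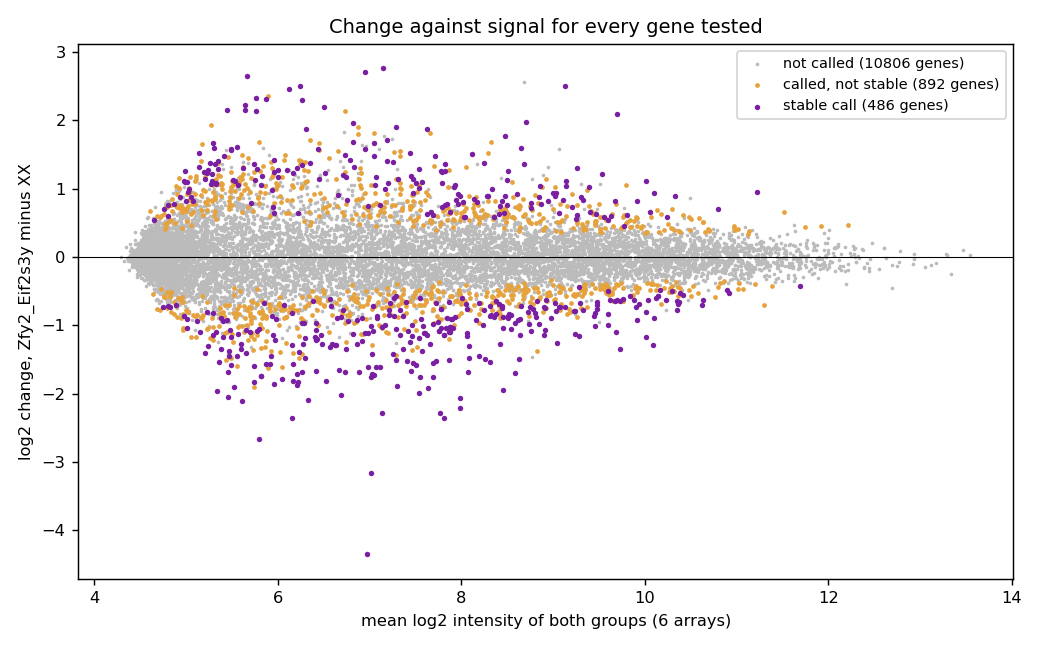
Log2 change (Zfy2_Eif2s3y minus XX, vertical axis) against the mean log2 intensity of both groups (horizontal axis) for the 12184 genes tested, 1 point a gene. Grey points were not called, orange points were called but not stable, and purple points are the 486 stable calls, which lie on both sides of 0 and at all but the lowest and highest intensities.

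The arrays of batch 2 gave a comparison between other arrays, but not an independent fit: all 18 arrays were normalised together and share 1 estimate of the spread. There, oocytes with the same single-copy Zfy2 transgene but without Eif2s3y were set against oocytes with a multi-copy Zfy1 transgene, and 374 genes were called higher (3.07%) and 539 lower (4.42%). Of the 190 stable rises, 114 were called higher in batch 2 at an adjusted p under 0.05, and 180 had a positive change. The 2 called lower, named after their values were seen, were H2ac1 (-0.57) and the gene read by the Zfy2 probe (-1.14). That probe does not tell Zfy2 from Zfy1, and it averaged 5.88 in Zfy2 oocytes and 7.02 in Zfy1_hi oocytes. Its value there is not a measure of Zfy2 alone. Of the 296 stable falls, 192 were called lower and 287 had a negative change. The 114 genes made up 60% of the stable rises and 30.5% of the batch 2 rises, and the 192 genes made up 64.9% of the stable falls and 35.6% of the batch 2 falls. Batch 2 has no XX arrays, so its values do not give the effect of Zfy2 alone.

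The largest stable rises included transcriptional regulators, receptors and a metabolic enzyme. Otx1, a homeodomain factor of forebrain development, had log2 intensities of 8.33, 8.79 and 8.46 in Zfy2_Eif2s3y oocytes, against 6.18, 5.83 and 5.30 in XX oocytes (log2 change 2.76 ± 0.25 SE, adjusted p = 9.47e-06). Hoxd8, a gene of the Hoxd cluster that specifies position along the body axis, had 10.49, 10.48 and 10.19 in Zfy2_Eif2s3y oocytes, against 7.66, 7.96 and 8.03 in XX oocytes (log2 change 2.50 ± 0.27 SE, adjusted p = 3.44e-05). Hic1, a zinc finger repressor known as a tumour suppressor, had 6.92, 7.06 and 7.0 in Zfy2_Eif2s3y oocytes, against 4.30, 4.25 and 4.49 in XX oocytes, where no array was above background (at least 4.38-fold higher, adjusted p = 2.83e-09). In these 3 genes every Zfy2_Eif2s3y array lay far above every XX array, and the spread within a group was small beside the gap. Rai1, a chromatin-associated protein whose human orthologue is deleted in Smith-Magenis syndrome, had 7.22, 7.73 and 7.54 in Zfy2_Eif2s3y oocytes, against 5.19, 4.61 and 5.19 in XX oocytes (log2 change 2.50 ± 0.35 SE, adjusted p = 3.28e-04). Gldc, the decarboxylase of the mitochondrial glycine cleavage system, had 6.82, 7.37 and 6.57 in Zfy2_Eif2s3y oocytes, against 4.64, 4.57 and 4.60 in XX oocytes, none above background (at least 4.17-fold higher, adjusted p = 2.68e-05). The remaining large rises were Vmn1r93, a vomeronasal pheromone receptor (log2 change 2.71 ± 0.30 SE, adjusted p = 4.97e-05), Magee1, a member of the MAGE family (log2 change 2.46 ± 0.22 SE, adjusted p = 7.95e-06), and Csta2, a cystatin-type protease inhibitor (log2 change 2.31 ± 0.24 SE, adjusted p = 2.68e-05).

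The largest stable falls included enzymes, a transporter and a secretory protein. Galntl5, a relative of the enzymes that start mucin-type O-glycans and best known from sperm, had log2 intensities of 4.61, 4.64 and 5.14 in Zfy2_Eif2s3y oocytes, against 9.14, 9.21 and 9.10 in XX oocytes (log2 change -4.35 ± 0.31 SE, adjusted p = 7.72e-07). Slc1a1, a glutamate, aspartate and cysteine transporter, had 5.02, 4.81 and 6.48 in Zfy2_Eif2s3y oocytes, against 9.40, 8.05 and 8.35 in XX oocytes (log2 change -3.16 ± 0.44 SE, adjusted p = 3.26e-04). Galntl5 was above background on 1 Zfy2_Eif2s3y array, while its XX arrays lay close together, and Slc1a1 varied more in both groups without overlapping. Rtn4rl1, a membrane receptor related to the Nogo receptor of neurons, had 4.26, 4.52 and 4.62 in Zfy2_Eif2s3y oocytes, none above background, against 7.21, 6.63 and 7.53 in XX oocytes (at least 4.97-fold lower, adjusted p = 4.08e-04). Gcnt2, which builds branched I-antigen glycans, had 6.64, 6.66 and 6.62 in Zfy2_Eif2s3y oocytes, against 8.93, 8.80 and 9.25 in XX oocytes (log2 change -2.36 ± 0.21 SE, adjusted p = 8.85e-06). Shmt1, the cytosolic enzyme that passes a carbon unit between serine and glycine, had 6.06, 5.44 and 6.49 in Zfy2_Eif2s3y oocytes, against 8.42, 8.13 and 8.29 in XX oocytes (log2 change -2.28 ± 0.33 SE, adjusted p = 4.18e-04). Cadps2, a priming factor for dense-core vesicles, had 6.52, 6.32 and 7.06 in Zfy2_Eif2s3y oocytes, against 8.70, 8.91 and 9.13 in XX oocytes (log2 change -2.28 ± 0.30 SE, adjusted p = 1.85e-04). Insyn2b (log2 change -2.35 ± 0.42 SE, adjusted p = 0.00201) and Glis3, a Kruppel-like zinc finger factor (log2 change -2.21 ± 0.18 SE, adjusted p = 3.96e-06), completed the 8 largest.

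**Figure D2:**
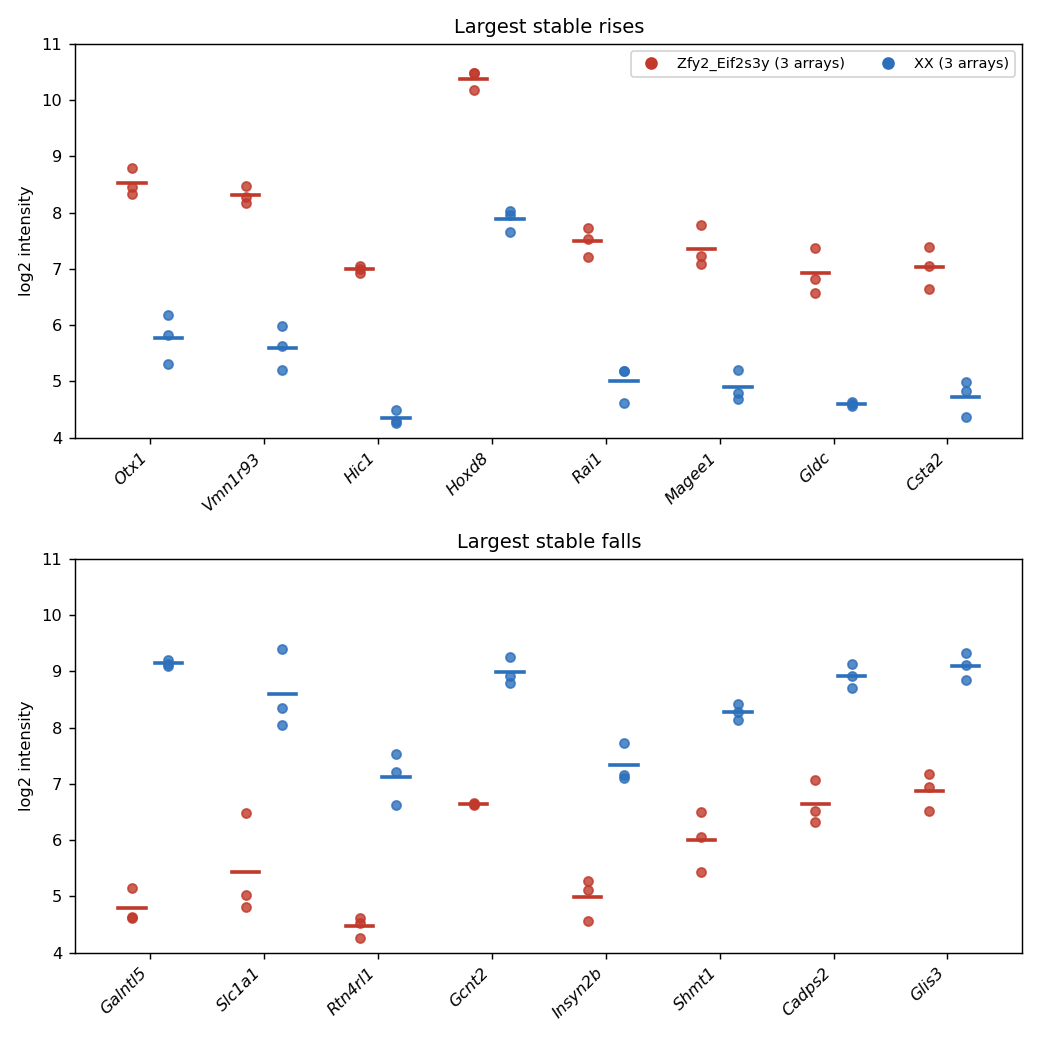
Log2 intensity on each array for the 8 stable calls with the largest fitted rises (top) and falls (bottom), with Zfy2_Eif2s3y arrays (red) left of XX arrays (blue) for each gene and bars at the means. In each gene all 3 Zfy2_Eif2s3y arrays lie on 1 side of all 3 XX arrays, with the XX arrays of Hic1 and Gldc and the Zfy2_Eif2s3y arrays of Rtn4rl1 not above background.

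The other transgenic groups of batch 1 show where these levels lay without functional Zfy2 and without the Eif2s3y transgene. The effects of Zfy2 and Eif2s3y cannot be told apart in the comparison with XX oocytes. Zfy2_nf oocytes carry a non-functional Zfy2 transgene and Zfy1_lo oocytes 1 copy of Zfy1. Otx1 averaged 8.53 in Zfy2_Eif2s3y, 5.80 in Zfy1_lo, 5.88 in Zfy2_nf and 5.77 in XX oocytes, and Slc1a1 averaged 5.43, 8.67, 8.92 and 8.60 in the same order. Galntl5 averaged 4.80 in Zfy2_Eif2s3y, 8.47 in Zfy1_lo, 6.10 in Zfy2_nf and 9.15 in XX oocytes, and Rtn4rl1 averaged 4.47, 6.66, 4.51 and 7.12. The means of Galntl5 and Rtn4rl1 in Zfy2_nf oocytes thus lay below those in XX oocytes, while those of Otx1 and Slc1a1 lay near them. The differences between these groups were not tested here.

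**Figure D3:**
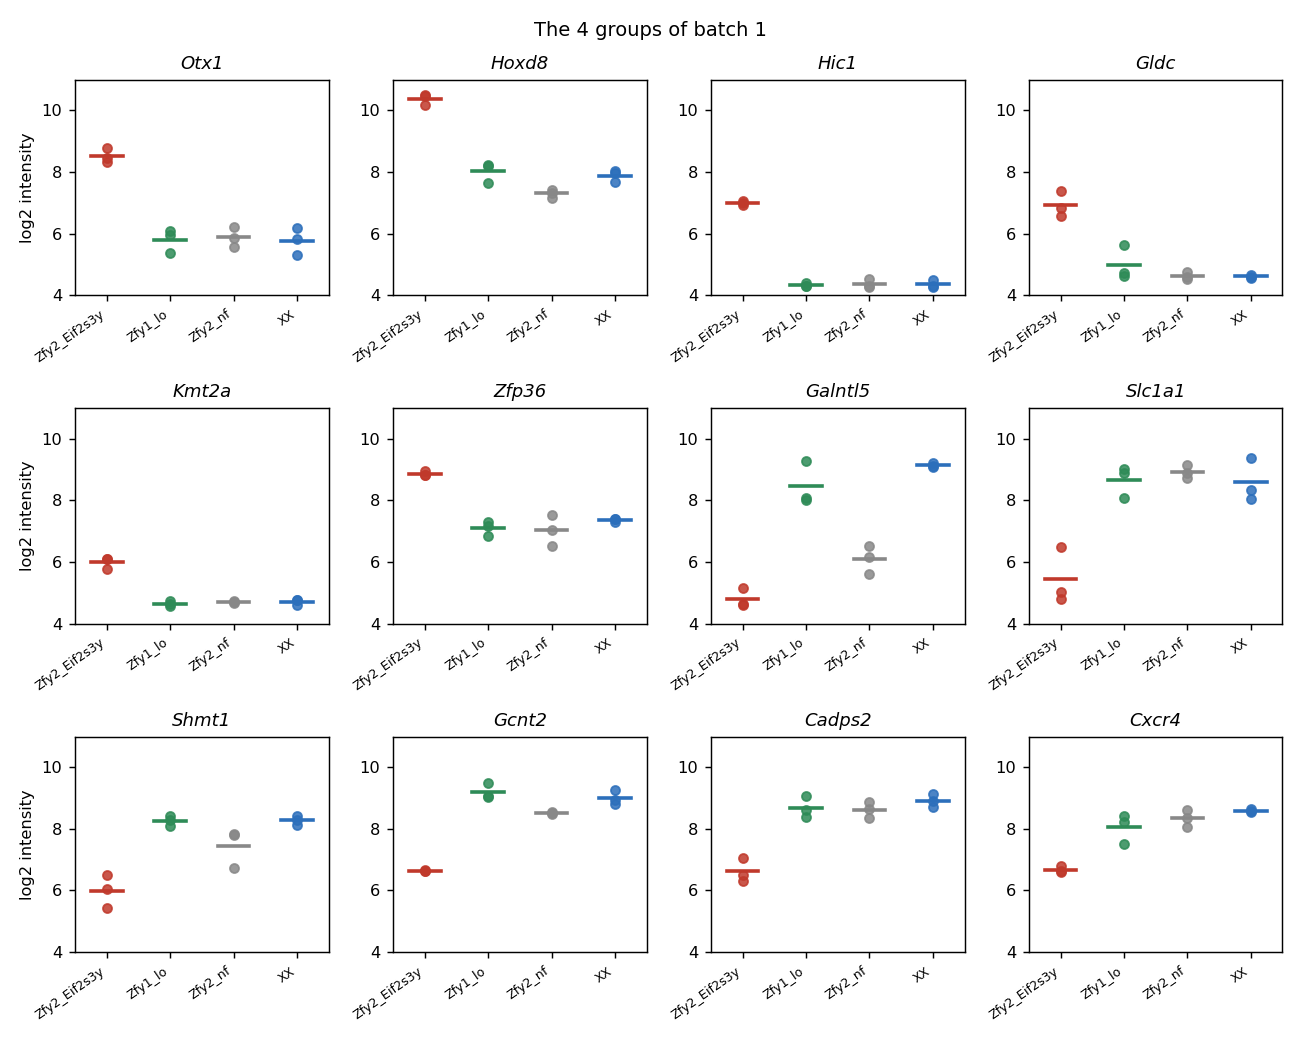
Log2 intensity on each array (points) and group means (bars) for 6 genes that rose and 6 that fell, in the 4 groups of batch 1, with Zfy2_Eif2s3y at the left and XX at the right. Galntl5 is low in both Zfy2_Eif2s3y and Zfy2_nf oocytes, while in the other panels the Zfy2_Eif2s3y means stand farthest from the XX means.

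Transcription factors of embryonic patterning were called often, the homeobox genes most. Homeodomain proteins bind DNA through a conserved fold and set regional identity in the embryo. Of 21 measured genes of the Hox clusters, 5 were called higher and none lower, which is 23.8% of the list, with a median log2 change of 0.142. At an unadjusted p under 0.05 in limma the same counts were 5 and 0. The stable ones were neighbours in the Hoxd cluster, Hoxd8 and Hoxd9. Hoxd9 had log2 intensities of 9.83, 10.04 and 9.85 in Zfy2_Eif2s3y oocytes, against 8.37, 8.79 and 8.67 in XX oocytes (log2 change 1.30 ± 0.16 SE, adjusted p = 1.51e-04). Hoxa5 (0.96, adjusted p = 0.0453), Hoxb2 (0.89, adjusted p = 0.0135) and Hoxc6 (1.25, adjusted p = 0.0489) were called, but each lost its call without at least 3 of the 6 arrays left out singly, and each was above background on 1 XX array. The other 16 were not called, among them Hoxa7, bright in both groups at 10.27 ± 0.10 in Zfy2_Eif2s3y oocytes and 10.50 ± 0.08 in XX oocytes (SD, n = 3 each). Among 78 homeobox genes outside the clusters, 10 were called higher and 7 lower (21.8%), of which 6 rises and 5 falls were stable. Besides Otx1, the stable rises were Tlx1, a factor of spleen development (at least 3.71-fold higher, adjusted p = 4.43e-06), Isl2, a factor of motor neurons (1.25, adjusted p = 1.16e-04), Emx2 (0.80, adjusted p = 0.00123), En2 (at least 1.19-fold higher, adjusted p = 0.00729) and Barx1 (1.12, adjusted p = 7.98e-04), which act in cortex, midbrain and stomach. The stable falls were Tshz2 (-1.45, adjusted p = 1.83e-04), Prox1, a master factor of lymphatic endothelium (-1.81, adjusted p = 0.00378), Meis2, a Hox cofactor (-0.52, adjusted p = 0.0109), Cux1 (-1.15, adjusted p = 5.47e-04) and Cux2 (-0.88, adjusted p = 0.0116). Those of Cux1 and Cux2 were lost when the probes of a gene were averaged.

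The other developmental families moved in both directions. Of 42 Pax, Fox, Sox, Gata and T-box genes, 4 were called higher and 3 lower (16.7%). Pax6, the factor of eye development, had log2 intensities of 6.43, 6.50 and 6.32 in Zfy2_Eif2s3y oocytes, against 4.97, 5.50 and 4.92 in XX oocytes (log2 change 1.28 ± 0.21 SE, adjusted p = 9.02e-04). Pax2, a factor of kidney development, moved the other way, with 7.90, 7.06 and 7.57 in Zfy2_Eif2s3y oocytes, against 8.91, 9.11 and 9.0 in XX oocytes (log2 change -1.49 ± 0.24 SE, adjusted p = 9.60e-04). Foxc1 rose (1.30, adjusted p = 0.00453) and Sox5 fell (-1.87, adjusted p = 0.00464). Among 70 bHLH and bZIP regulators, 5 were called in each direction (14.3%), and the stable ones were Sohlh2, a germ-cell factor of early oocyte growth, Mxd4, a repressor of the Myc network, and Batf3, a factor of dendritic cells. Sohlh2 had 7.14, 7.27 and 7.30 in Zfy2_Eif2s3y oocytes, against 5.79, 5.77 and 5.39 in XX oocytes (log2 change 1.58 ± 0.15 SE, adjusted p = 1.07e-05), Mxd4 rose (0.75, adjusted p = 0.00518) and Batf3 fell (-1.57, adjusted p = 6.79e-04). Sp5, a target and partner of Wnt signalling, rose (at least 1.6-fold higher, adjusted p = 5.85e-04).

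Zinc finger genes had a share of calls close to that of all genes. Of 258 measured genes with numbered Zfp symbols, 9 were called higher and 25 lower (13.2%, against 11.3% of all genes, of which 5.18% higher and 6.13% lower), and 3 rises and 10 falls were stable. Their median log2 change was -0.045, against -0.0101 for all genes. Zfp945 (at least 1.57-fold lower, adjusted p = 2.40e-04) and Zfp345 (-0.88, adjusted p = 5.63e-04) fell, and Zfp532 rose (1.03, adjusted p = 1.06e-04). Zfp36, listed among them by its symbol, encodes tristetraprolin, which binds AU-rich elements and speeds decay of its targets. It had log2 intensities of 8.84, 8.95 and 8.84 in Zfy2_Eif2s3y oocytes, against 7.39, 7.39 and 7.31 in XX oocytes (log2 change 1.51 ± 0.21 SE, adjusted p = 3.64e-04). In the related families of 56 Zbtb, Zscan and Prdm genes, 4 were called higher and 3 lower (12.5%), and Zbtb1 rose (1.69, adjusted p = 0.00394).

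Chromatin lists had between 4.35% and 16% of their genes called, the lowest for H3K4 methyltransferase complexes and the highest for histone lysine demethylases. Kmt2a, an H3K4 methyltransferase that maintains Hox expression in the embryo, had log2 intensities of 6.10, 6.09 and 5.78 in Zfy2_Eif2s3y oocytes, against 4.76, 4.76 and 4.61 in XX oocytes, none of them above background (at least 2.19-fold higher, adjusted p = 7.11e-06). It was the 1 gene called among 23 of the H3K4 methyltransferase complexes (4.35%). Dnmt3b, a de novo DNA methyltransferase, rose (1.04, adjusted p = 2.67e-04), as did the demethylases Kdm1a (0.65, adjusted p = 0.00324) and Phf2 (0.81, adjusted p = 0.00315), the deacetylase Sirt1 (1.08, adjusted p = 0.00453) and the remodeller Chd1 (0.77, adjusted p = 0.00335). Hdac9, another deacetylase, was above background on no Zfy2_Eif2s3y array (at least 2.14-fold lower, adjusted p = 0.00455), and Dpf3, a subunit of BAF remodelling complexes, fell (-1.0, adjusted p = 4.35e-04). Of 63 histone genes 5 were called higher and none lower (7.94%; 13 higher and 2 lower at an unadjusted p under 0.05), including H2ax, the variant phosphorylated at DNA breaks (0.89, adjusted p = 1.98e-04). Near-identical histone copies may share signal on 1 probe. Polycomb genes gave 3 calls higher and 1 lower of 34 (11.8%), none stable.

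Promoters were examined because Zfy2 is a DNA-binding factor. The window of 250 bases before and 50 after the start, taken from RefSeq (GRCm38.p6), was found for 9866 of the 12184 genes. The letters AGGCCT, the core of sites known for human ZFX and ZFY, read the same on both strands. They stood in 15.7% of the promoters of genes called higher (80 of 511), 10.3% of those called lower (61 of 593) and 10.4% of those not called. Among stable calls the shares were 14% for rises and 9.21% for falls, and 10.3% of all 27025 RefSeq promoters held the letters. The median GC content was 62.0% for genes called higher, 57.67% for genes called lower and 60.0% for all tested, so the groups differed in base composition as well, and the part of composition in the motif shares was not tested. The promoters of 4 regulators that rose are shown 5′ to 3′ as examples, with AGGCCT in capitals. The first base of the motif lies at -230 in Hic1, -201 in Rai1, -144 in Bahcc1 and -12 in Hoxd9, counted from the start of the transcript. The windows are chr11:75170206-75170505 on the minus strand for Hic1, chr11:60104763-60105062 on the plus strand for Rai1, chr11:120232697-120232996 on the plus strand for Bahcc1, a chromatin regulator, and chr2:74697513-74697812 on the plus strand for Hoxd9.
Hic1: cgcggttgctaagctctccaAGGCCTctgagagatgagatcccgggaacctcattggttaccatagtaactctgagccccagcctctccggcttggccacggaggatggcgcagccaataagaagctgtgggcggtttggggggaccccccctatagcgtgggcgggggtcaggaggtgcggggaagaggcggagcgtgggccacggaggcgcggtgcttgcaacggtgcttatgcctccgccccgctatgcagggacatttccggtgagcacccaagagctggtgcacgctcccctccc
Rai1: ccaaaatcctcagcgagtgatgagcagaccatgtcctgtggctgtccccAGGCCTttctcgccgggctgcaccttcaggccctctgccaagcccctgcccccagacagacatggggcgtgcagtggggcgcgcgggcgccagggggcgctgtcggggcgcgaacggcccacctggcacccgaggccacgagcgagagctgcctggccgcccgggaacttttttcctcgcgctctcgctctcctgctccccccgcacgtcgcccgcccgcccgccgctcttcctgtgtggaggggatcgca
Bahcc1: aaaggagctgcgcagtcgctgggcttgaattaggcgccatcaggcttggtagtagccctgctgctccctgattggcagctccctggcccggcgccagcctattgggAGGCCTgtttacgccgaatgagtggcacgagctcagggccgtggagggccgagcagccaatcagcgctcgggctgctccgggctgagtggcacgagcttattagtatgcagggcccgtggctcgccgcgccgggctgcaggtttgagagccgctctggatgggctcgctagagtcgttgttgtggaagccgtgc
Hoxd9: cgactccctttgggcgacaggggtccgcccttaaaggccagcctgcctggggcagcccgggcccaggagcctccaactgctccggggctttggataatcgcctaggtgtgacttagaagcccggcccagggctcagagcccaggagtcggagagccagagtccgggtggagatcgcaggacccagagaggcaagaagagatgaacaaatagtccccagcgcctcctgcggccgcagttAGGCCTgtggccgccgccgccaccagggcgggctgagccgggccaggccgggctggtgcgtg
All 4 promoters are GC-rich, from 64.7% in Hic1 and Bahcc1 to 71.0% in Rai1, whereas the promoter of Hoxd8 has 46.7% and holds no AGGCCT. Galntl5, the gene with the deepest fall, holds the letters too, at -53, and a match is a description of letters rather than a site.

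Signalling genes were called in both directions, and the falls included several receptors. Cytokines, chemokines and their receptors had 10 of 61 members called lower and 2 higher, or 19.7% in all against 11.3% of all genes. Their median log2 change was -0.119. Cxcr4, the receptor of the chemokine Cxcl12, had log2 intensities of 6.60, 6.65 and 6.80 in Zfy2_Eif2s3y oocytes, against 8.54, 8.58 and 8.66 in XX oocytes (log2 change -1.91 ± 0.21 SE, adjusted p = 4.31e-05). Tnfrsf21, a death-domain receptor, had 4.42, 4.29 and 4.39 in Zfy2_Eif2s3y oocytes, none above background, against 6.30, 6.56 and 6.10 in XX oocytes (at least 2.85-fold lower, adjusted p = 5.47e-04). Both receptors had XX arrays well clear of all Zfy2_Eif2s3y arrays. The ligands Csf1, a macrophage growth factor (-1.31, adjusted p = 2.31e-04), and Tnfsf13b, a B-cell survival factor (-1.19, adjusted p = 0.00154), fell, while Cxcl14 rose (0.98, adjusted p = 0.00589). Blood and immune markers were not called, and Csf1r, the receptor of Csf1, was above background in neither group.

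Receptor tyrosine kinases and the MAP kinase cascade had shares of calls near the 11.3% of all genes, with stable calls at several levels. Egfr, through which EGF-like factors act, had log2 intensities of 8.06, 7.77 and 7.36 in Zfy2_Eif2s3y oocytes, against 9.52, 9.34 and 9.44 in XX oocytes (log2 change -1.70 ± 0.22 SE, adjusted p = 2.11e-04), and Mertk, a receptor for uptake of apoptotic cells, fell as well (-1.47, adjusted p = 0.00228). These and a rise of the adaptor Gab2 (0.77, adjusted p = 0.00546), which was lost when its probes were averaged, were the stable calls of 39 receptor and Ras genes, 2 called higher and 3 lower (12.8%). In the cascade 6 of 46 genes were called, 3 in each direction and all stable. Among the kinases Map2k6, which activates p38, had 6.60, 6.32 and 6.93 in Zfy2_Eif2s3y oocytes, against 7.96, 8.69 and 8.20 in XX oocytes (log2 change -1.67 ± 0.24 SE, adjusted p = 4.52e-04), and its substrate Mapk14, or p38 alpha, fell by less (-0.82, adjusted p = 0.00115). Map3k21 fell (-1.10, adjusted p = 0.00156) and Map4k4 rose (0.88, adjusted p = 0.00673). Both dual-specificity phosphatases that passed, Dusp4 (1.19, adjusted p = 9.46e-04) and Dusp9 (at least 1.62-fold higher, adjusted p = 1.12e-04), which remove the activating phosphates from MAP kinases, rose. Other Dusp4 probes gave 0.64 (called) and -0.37 (not called). The MAP kinase list as a whole had a median change of -0.007.

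The Wnt and Notch lists had shares of called genes near the 11.3% of all genes. Of 34 intracellular Wnt genes, 3 rose and 1 fell (11.8%), all stable, and of 28 Wnt ligands and receptors 2 were called higher and 1 lower (10.7%). Pygo1, a nuclear partner of beta-catenin, averaged 6.66 ± 0.19 in Zfy2_Eif2s3y oocytes and 5.25 ± 0.40 in XX oocytes (log2 change 1.41 ± 0.24 SE, adjusted p = 0.00145), and Btrc, the F-box protein that marks beta-catenin for destruction (0.65, adjusted p = 0.00254), and Celsr1, a planar polarity cadherin (0.62, adjusted p = 0.00603), rose. Axin2, a feedback inhibitor and common readout of Wnt activity, fell (-0.57, adjusted p = 0.00315), and the call for Btrc was lost when its probes were averaged. Lgr4, a receptor for R-spondins, rose (1.28, adjusted p = 0.00248). In the Notch list Mib1, a ligase that activates Notch ligands (1.29, adjusted p = 4.18e-04), and Mfng, a glycosyltransferase of Notch receptors (0.63, adjusted p = 0.00659), were the 2 stable calls of 27 genes, of which 2 were called higher and 1 lower (11.1%). TGF-beta and BMP genes, with 1 call of 31 (3.23%), and the PI3K, Akt and mTOR genes, with 1 of 32 (3.12%), lay below the share of all genes, and neither call was stable.

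Interferon and antiviral genes were called in both directions. Among 40 of them, 7 were called higher and 2 lower (22.5%, against 11.3% of all genes). At an unadjusted p under 0.05 in limma 7 were higher and 6 lower, and the median change was -0.023. Mavs, the mitochondrial adaptor of RNA sensing, had log2 intensities of 6.32, 6.82 and 6.63 in Zfy2_Eif2s3y oocytes, against 5.13, 5.52 and 5.62 in XX oocytes (log2 change 1.17 ± 0.25 SE, adjusted p = 0.00682). Irf3, a transcription factor downstream of it, had 8.70, 8.48 and 8.14 in Zfy2_Eif2s3y oocytes, against 7.59, 7.53 and 7.50 in XX oocytes (log2 change 0.90 ± 0.16 SE, adjusted p = 0.00189), a call lost when its probes were averaged. Ifitm3, a membrane protein that blocks virus entry and also marks germ cells, rose (0.93, adjusted p = 1.77e-04), with the caution that Ifitm genes are near-identical copies. Nfkbiz, an atypical inhibitor protein of NF-kB that also activates some of its targets, rose (0.94, adjusted p = 1.16e-04), and Ikbkg, the NEMO subunit of the kinase upstream, rose as well (at least 1.54-fold higher, adjusted p = 0.00458).

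Calcium, cyclic AMP and guidance genes had calls in both directions. Of 35 calcium release and entry genes 2 were called higher and 2 lower (11.4%), of 42 cyclic AMP genes 1 and 3 (9.52%), and of 41 ephrin and semaphorin guidance genes 1 and 5 (14.6%), so the first 2 shares lie near the 11.3% of all genes. The stable calls were falls. Rapgef3, the cyclic AMP-activated exchange factor Epac1, had log2 intensities of 9.10, 9.21 and 9.12 in Zfy2_Eif2s3y oocytes, against 10.26, 10.04 and 10.41 in XX oocytes (log2 change -1.09 ± 0.23 SE, adjusted p = 0.00652). Akap6, an anchor of protein kinase A (-1.75, adjusted p = 0.00779), Ppp3ca, a catalytic subunit of calcineurin (-1.16, adjusted p = 0.00133), and the guidance receptors Unc5c (-0.73, adjusted p = 0.00426) and Epha3 (-0.66, adjusted p = 0.00534) fell. Sema6d fell (-0.81, adjusted p = 6.62e-04) on 1 probe, and its call was lost when its probes were averaged.

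Genes of secretion were called mostly lower. SNARE proteins fuse vesicles with their target membranes, and the exocytosis factors around them prime and time release. Of 71 such genes, 10 were called lower and 3 higher (18.3%), and 7 falls and none of the rises were stable. Besides Cadps2, Dnajc5b, a cysteine-string chaperone of vesicles, had log2 intensities of 5.26, 4.97 and 5.63 in Zfy2_Eif2s3y oocytes, against 7.27, 7.42 and 7.42 in XX oocytes (log2 change -2.09 ± 0.27 SE, adjusted p = 1.95e-04). Stx11, a syntaxin of cytotoxic granule release (-1.50, adjusted p = 0.00518), Exoc6, a subunit of the exocyst (-1.09, adjusted p = 2.31e-04), and Rims1 (-0.86, adjusted p = 0.00659) and Unc13c (-0.44, adjusted p = 0.0109), priming proteins of synapses, also fell, the last without a call when the 6 arrays were normalised alone. The broader list of 216 Rab, Arf and vesicle coat genes had 7 called higher and 12 lower (8.80%), under the share of all genes. In it, Rabgap1l, a Rab GTPase-activating protein (-1.89, adjusted p = 2.42e-05), Rab32 (-1.54, adjusted p = 2.91e-04) and Rab29 (at least 2.12-fold lower, adjusted p = 3.85e-04), both of lysosome-related organelles, fell, and Rab11fip5, an effector of recycling endosomes, rose (1.11, adjusted p = 0.00124).

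Solute carriers were called about as often as all genes, and their stable calls were falls. Among 228 solute carriers, 20 were called lower and 5 higher (11%), close to the 11.3% of all genes. At an unadjusted p under 0.05 in limma 34 were lower and 21 higher. All 13 stable calls were falls, where 2.43% of all genes were stable falls and 1.56% stable rises. Slc7a11, the cystine and glutamate exchanger that supplies cysteine for glutathione, had log2 intensities of 8.88, 8.89 and 9.07 in Zfy2_Eif2s3y oocytes, against 9.83, 9.93 and 10.13 in XX oocytes (log2 change -1.01 ± 0.11 SE, adjusted p = 2.68e-05). With Slc1a1 it carries acidic amino acids or cystine, and the groups separated fully in both. The neutral amino acid carrier Slc6a15 (-0.84, adjusted p = 0.00374) and the cationic carrier Slc7a2 (-1.12, adjusted p = 0.00601) fell too. Of 29 amino acid transporters 4 were thus stable falls, with 4 called lower and 1 higher in all (17.2%). Slc16a12, a monocarboxylate and creatine carrier, was above background on no Zfy2_Eif2s3y array (at least 1.65-fold lower, adjusted p = 5.85e-04), and Slc41a3, a magnesium carrier, fell (-1.14, adjusted p = 4.35e-04). Ion channels were rarely called, with 1 higher and 2 lower of 101 (2.97%). Trpv2, a cation channel, had 5.65, 5.38 and 5.99 in Zfy2_Eif2s3y oocytes, against 8.01, 7.61 and 7.47 in XX oocytes (log2 change -2.02 ± 0.38 SE, adjusted p = 0.00291), and Ano2, a chloride channel, fell (-1.11, adjusted p = 7.14e-04).

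Among cell contact and matrix genes, of the 3 lists the junction list alone had a share of calls above the 11.3% of all genes, which also had more calls lower than higher. The oocyte communicates with cumulus cells through gap junctions, and the list of 43 gap junction, claudin and tight junction genes had 7 called lower and 2 higher (20.9%), with a median change of -0.174. Crb1, a polarity protein (-1.53, adjusted p = 3.26e-04), Mpp3, a scaffold of the same complex family (-1.68, adjusted p = 0.00518), and Cldn8, a claudin (-1.09, adjusted p = 0.00331), fell. Another Cldn8 probe went the other way without a call (0.20). Mpp1, an erythroid membrane scaffold placed here by its family, rose, with log2 intensities of 7.90, 8.29 and 7.97 in Zfy2_Eif2s3y oocytes, against 6.32, 6.59 and 6.10 in XX oocytes (log2 change 1.72 ± 0.18 SE, adjusted p = 2.56e-05). Of 51 collagen, laminin and other matrix genes, 5 were called lower and none higher (9.80%; 9 lower and 4 higher at an unadjusted p under 0.05). Tnc, the matrix glycoprotein tenascin C, had 6.71, 6.72 and 6.99 in Zfy2_Eif2s3y oocytes, against 8.61, 8.56 and 8.54 in XX oocytes (log2 change -1.76 ± 0.38 SE, adjusted p = 0.00787), and Lamb2, a laminin beta chain (-1.13, adjusted p = 9.07e-04), and Matn1 (-0.77, adjusted p = 0.00285) fell. Other Tnc probes gave -1.60 (called), 0.07 and 0.03 (not called). Among 75 adhesion genes, 6 were called lower and 2 higher (10.7%), including the falls of Cntn6 (-1.61, adjusted p = 5.77e-04) and Cdh20 (-1.18, adjusted p = 0.00126) and the rise of Icam4 (1.11, adjusted p = 0.00109).

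Genes of microtubules and keratins were called in both directions. Of 61 tubulin and microtubule genes 7 were called lower and 3 higher (16.4%), with falls of Dclk3, a doublecortin-like kinase (-1.27, adjusted p = 0.0025), and Mapre2, a plus-end binding protein (-0.98, adjusted p = 0.00109). In this list 3 falls and 2 rises were stable. Map9 also fell (-0.86) and Map4 rose (0.54), but both calls were lost when the probes of a gene were averaged. Krt8, a keratin of simple epithelia also present in oocytes and embryos, rose (1.06, adjusted p = 0.00297), and Krt12, the keratin of cornea, fell (-1.67, adjusted p = 9.34e-06).

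**Figure D4:**
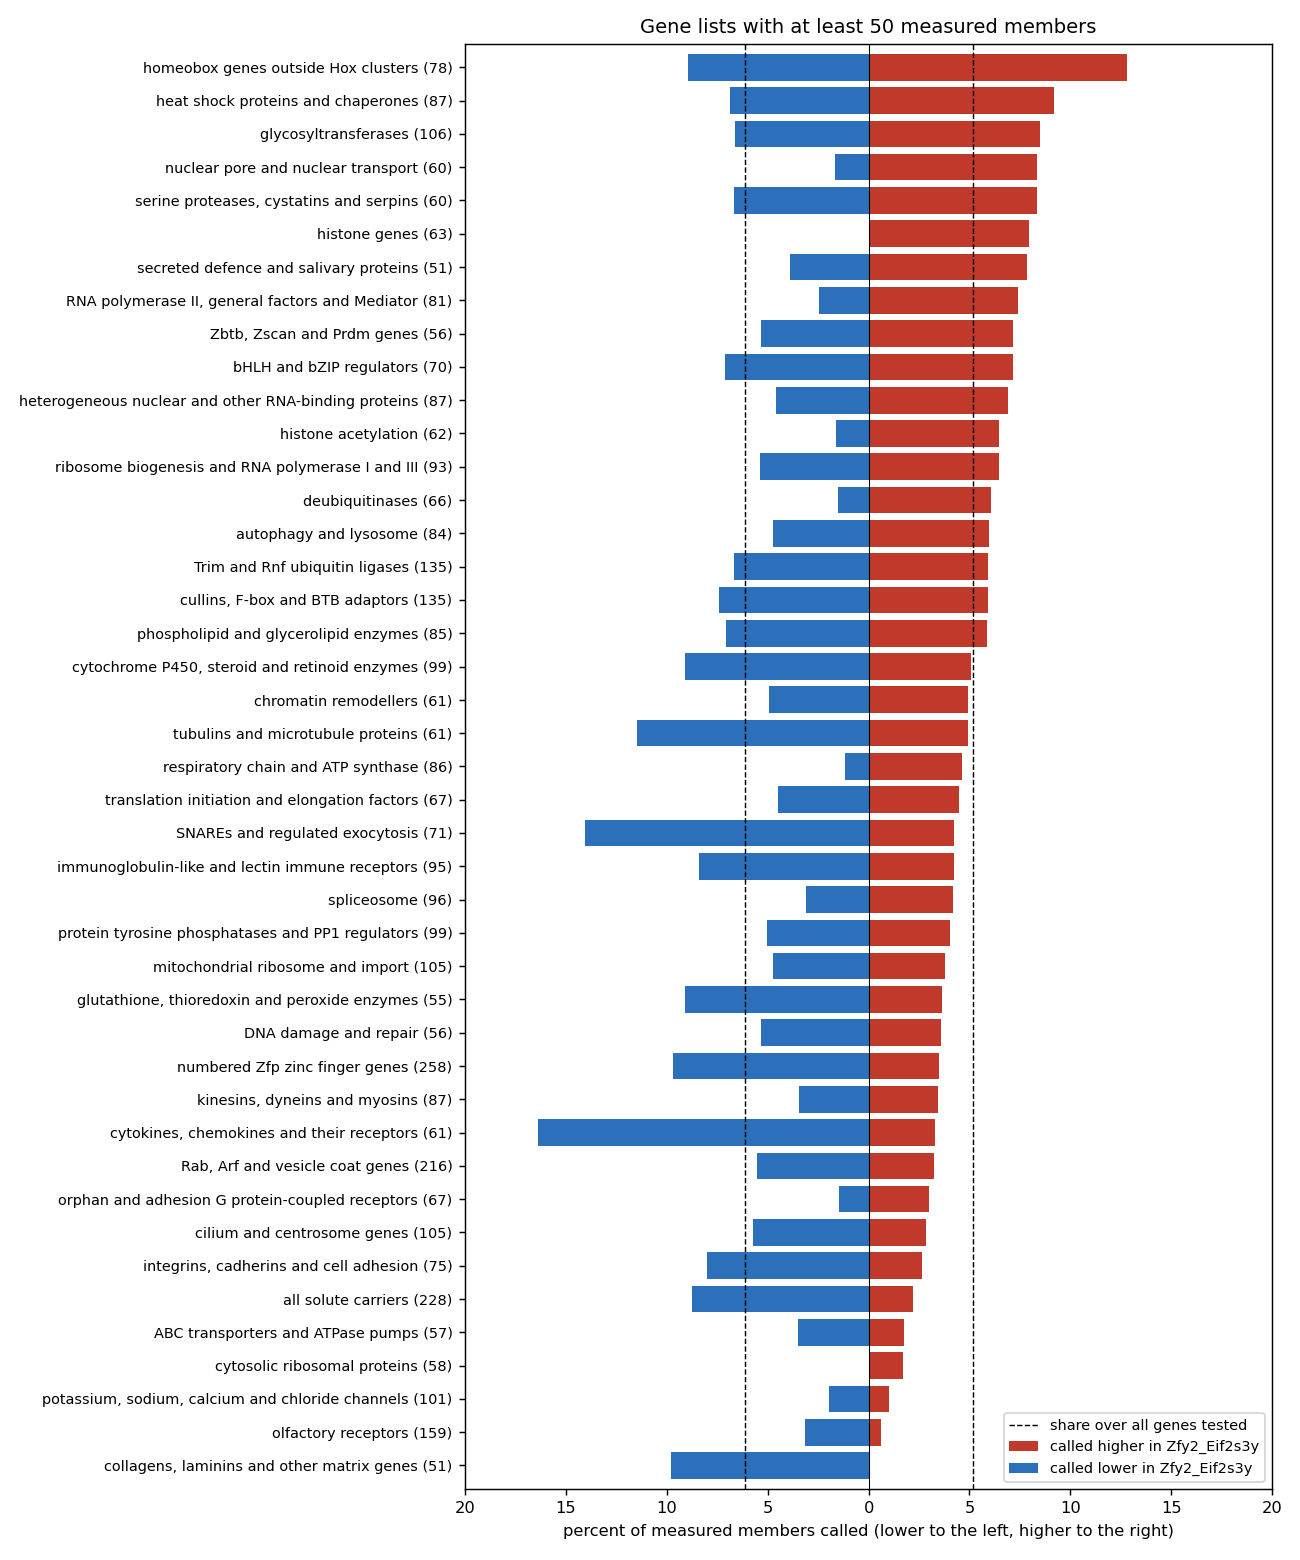
Percent of measured members called higher (red, to the right) and lower (blue, to the left) in Zfy2_Eif2s3y oocytes for the 43 gene lists with at least 50 measured members, numbers in brackets, with dashed lines at the shares over all genes tested (5.18% higher and 6.13% lower). Homeobox genes outside the clusters have the longest red bar, at 10 of 78, and cytokine genes the longest blue bar, at 10 of 61.

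Transcripts of glycine, serine and one-carbon enzymes were called in both directions. Of 29 genes, 4 were called higher and 2 lower (20.7%, against 11.3% of all genes). Gldc, which breaks glycine down in mitochondria, and Shmt1, which interconverts serine and glycine in the cytosol, moved in opposite directions with the values given above. Ahcyl1, a relative of the enzyme that clears S-adenosylhomocysteine and a regulator of IP3 receptors, rose (0.73, adjusted p = 0.00396), and Mthfs, which returns folinic acid to the folate pool, fell (-0.82, adjusted p = 0.00485). The list median was 0.003.

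Few genes of carbon and energy metabolism gave stable calls. Acly, which turns citrate into acetyl-CoA for lipid synthesis and histone acetylation, had log2 intensities of 9.99, 10.28 and 10.15 in Zfy2_Eif2s3y oocytes, against 8.60, 8.89 and 9.27 in XX oocytes (log2 change 1.22 ± 0.17 SE, adjusted p = 2.91e-04). It was the 1 stable call among 26 citric acid cycle genes, of which 4 were called higher and none lower (15.4%; 6 and 4 at an unadjusted p under 0.05), with a median change of -0.012. Pfkfb2, which sets the level of the glycolytic activator fructose 2,6-bisphosphate, fell (-1.68, adjusted p = 0.00101), a call lost when its probes were averaged. Respiratory chain and ATP synthase genes had 5 calls of 86 (5.81%), with cytochrome c, Cycs, the stable rise (1.30, adjusted p = 0.00126). Among 105 genes of the mitochondrial ribosome and import, Mrps26 rose (1.14, adjusted p = 0.00105) and Polrmt, the mitochondrial RNA polymerase, fell (-1.04, adjusted p = 0.00189).

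Enzymes that modify lipids, sugars and steroids were called in both directions, with most of the stable calls falls. Of 106 glycosyltransferases, 9 were called higher and 7 lower (15.1%, against 11.3% of all genes). At an unadjusted p under 0.05 in limma 15 were higher and 13 lower. All 7 calls lower were stable, and only Galnt6 was a stable rise (0.58, adjusted p = 0.0083). Chst11, a chondroitin sulfotransferase, had log2 intensities of 7.47, 7.26 and 7.74 in Zfy2_Eif2s3y oocytes, against 9.61, 9.33 and 9.35 in XX oocytes (log2 change -1.94 ± 0.25 SE, adjusted p = 1.90e-04), and B3galt1 fell (-1.74, adjusted p = 4.35e-04). Of 99 cytochrome P450, steroid and retinoid genes, 9 were called lower and 5 higher (14.1%), with 6 stable falls. Without adjustment, at p under 0.05 in limma, 12 were lower and 15 higher. Sult2b1, a sterol sulfotransferase, had 5.60, 5.42 and 4.89 in Zfy2_Eif2s3y oocytes, against 7.46, 7.08 and 6.87 in XX oocytes (log2 change -1.83 ± 0.29 SE, adjusted p = 8.28e-04). Cyp4v3, a fatty acid hydroxylase (-1.66, adjusted p = 0.00216), Aldh1a2, which makes retinoic acid (-1.42, adjusted p = 1.95e-05), and Cyp7b1 (-0.97, adjusted p = 0.00763) and Cyp39a1 (-1.28, adjusted p = 0.00223), both oxysterol hydroxylases, fell with Cyp11a1. Glutathione transferases Gstm5 (-1.61, adjusted p = 1.41e-05), Gsto2 (-0.99, adjusted p = 0.00138) and Gstk1 (-0.75, adjusted p = 0.00676) fell, the 3 stable calls among 55 genes of glutathione, thioredoxin and peroxide enzymes. Of these 55, 2 were called higher and 5 lower (12.7%), near the 11.3% of all genes. In sphingolipid metabolism Acer3, a ceramidase, rose (1.14, adjusted p = 6.02e-04) and Sptlc3, a subunit of the first enzyme, fell (-1.14, adjusted p = 7.98e-04). Cholesterol synthesis had 1 call of 17 (5.88%), not stable, and fatty acid metabolism 2 of 41 (4.88%).

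Chaperones and ubiquitin enzymes were called in both directions. Among 87 heat shock proteins and chaperones, 8 were called higher and 6 lower (16.1%). Hspb1, a small heat shock protein, had log2 intensities of 8.09, 8.64 and 8.01 in Zfy2_Eif2s3y oocytes, against 6.32, 6.55 and 6.16 in XX oocytes (log2 change 1.91 ± 0.20 SE, adjusted p = 2.80e-05). Another Hspb1 probe went the other way without a call (-0.41). Hspa1b, an inducible Hsp70 gene with a near-identical neighbour, had 5.69, 6.63 and 5.98 in Zfy2_Eif2s3y oocytes, against 4.42, 4.38 and 4.72 in XX oocytes, none above background (at least 2.36-fold higher, adjusted p = 5.47e-04). Dnajb9, a cochaperone of the endoplasmic reticulum induced by unfolded protein, rose (1.17, adjusted p = 6.22e-04), and Hsf5, a heat shock factor of male germ cells, fell (-0.97, adjusted p = 4.92e-04), a call lost when its probes were averaged. Ubiquitin ligases of the Trim and Rnf families and of the HECT type listed with them had 8 called higher and 9 lower of 135 (12.6%), with 3 stable rises and 7 stable falls. The HECT-type ligases Hectd2 (-1.34, adjusted p = 3.65e-05), Hecw2 (-1.68, adjusted p = 7.80e-04) and Herc1 (-0.73, adjusted p = 0.00341) fell, and Trim26 rose (0.77, adjusted p = 0.00376). Among 135 cullin, F-box and BTB genes, Cul7 rose (1.42, adjusted p = 0.00156), and Fbxo40 (-1.75, adjusted p = 1.38e-04) and Klhl1 (-1.28, adjusted p = 1.14e-04) fell. In the autophagy list Atg10, an E2-like enzyme of autophagosome formation, was above background on no Zfy2_Eif2s3y array (at least 2.81-fold lower, adjusted p = 0.00133), Wipi1 fell (-0.93, adjusted p = 0.00147) and Hexa, a lysosomal hexosaminidase, fell (-0.89, adjusted p = 0.0103).

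Translation genes were mostly not called. Of 58 cytosolic ribosomal proteins, 1 was called (1.72%), Rpl22l1, a paralogue of Rpl22 (0.76, adjusted p = 0.00714). Of 67 translation factors, 3 were called higher and 3 lower (8.96%), of which Eif4h, a helper of the helicase eIF4A (0.82, adjusted p = 0.00745), was a stable rise and Eif2b2, a subunit of the exchange factor that recharges eIF2 (-0.68, adjusted p = 0.00768), a stable fall. Proteasome genes had 2 called lower of 43 (4.65%), neither stable.

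Cell cycle, death and germline RNA genes held a few clear changes. Ccne2, cyclin E2, which drives entry into S phase, had log2 intensities of 9.11, 8.80 and 8.89 in Zfy2_Eif2s3y oocytes, against 7.02, 7.68 and 7.99 in XX oocytes (log2 change 1.37 ± 0.27 SE, adjusted p = 0.00374). Cdkn2c, an inhibitor of Cdk4 and Cdk6, rose (1.06, adjusted p = 0.00534). Ccne2 and Cdkn2c were the stable calls among 31 cyclin, Cdk1 and Cdc25 genes. Of these 5 were called higher and 1 lower (19.4%, against 11.3% of all genes). Genes of the spindle and kinetochore had 3 calls of 40 (7.50%) and those of the anaphase-promoting complex and checkpoint 3 of 29 (10.3%), none stable. Apaf1, the scaffold of the apoptosome, had 6.42, 6.43 and 6.63 in Zfy2_Eif2s3y oocytes, against 7.57, 7.60 and 7.57 in XX oocytes (log2 change -1.08 ± 0.12 SE, adjusted p = 4.77e-05), and Bcl2l11, the pro-apoptotic protein Bim, fell (-0.73, adjusted p = 0.00839), whereas Cycs, which binds Apaf1 on release from mitochondria, rose. Of 28 measured apoptosis genes 1 was called higher and 3 lower (14.3%, against 11.3% of all genes), with a median change of 0.109. At an unadjusted p under 0.05 in limma 4 were higher and 3 lower. Piwil1, a Piwi protein of the piRNA pathway, had 9.41, 9.16 and 9.75 in Zfy2_Eif2s3y oocytes, against 10.50, 10.79 and 10.89 in XX oocytes (log2 change -1.29 ± 0.20 SE, adjusted p = 6.36e-04). Dicer1, which cuts the small RNAs that oocytes need for spindle formation, fell (-0.70, adjusted p = 0.00646). They were the stable calls among 27 small RNA genes, 2 called in each direction (14.8%).

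Sensory receptor lists had different shares called. Of 32 vomeronasal and taste receptors, 5 were called higher and none lower (15.6%; also 5 and 0 at an unadjusted p under 0.05), whereas of 159 olfactory receptors 1 was called higher and 5 lower (3.77%). Vmn1r93 had log2 intensities of 8.47, 8.27 and 8.18 in Zfy2_Eif2s3y oocytes, against 5.98, 5.62 and 5.19 in XX oocytes. Vmn1r123 had 9.79, 9.69 and 9.60 in Zfy2_Eif2s3y oocytes, against 7.85, 7.60 and 7.72 in XX oocytes (log2 change 1.97 ± 0.27 SE, adjusted p = 2.49e-04), and Vmn1r243 rose (at least 2.66-fold higher, adjusted p = 1.16e-04). Vomeronasal genes include near-identical copies, so which copy gave the signal is uncertain. Olfr461 was the olfactory rise (at least 3.16-fold higher, adjusted p = 7.93e-04).

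The share of genes called differed along the range of signal. With the genes ordered by the mean signal of both groups and divided into 10 equal bins, 0.41% were called in the dimmest bin, 3 higher and 2 lower. That bin holds the signals nearest background, where a fall can hardly be measured. A gene with a large rise has a higher mean and so lies in a brighter bin. Changes in the dimmest bin ran from -0.76 to 0.73, and its low share follows in part from this ordering. The share reached 18.5% in the seventh bin, with 100 genes called higher and 126 lower, and was 7.47% in the brightest bin, with 39 called higher and 52 lower. Among genes of the brightest 10% by XX signal, Nfkbiz and Dazl were the stable rises, and Hectd2, Piwil1, Rcl1 (-1.17, adjusted p = 5.47e-04), Rapgef3, Anxa5, a phospholipid-binding annexin (-0.99, adjusted p = 6.64e-04), Auts2 (-0.92, adjusted p = 1.86e-04) and Bcas1 (-0.89, adjusted p = 3.43e-04) were among the falls. Ordering by XX signal alone favours falls among the brightest genes and rises among the dimmest, so no direction is read from it.

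**Figure D5:**
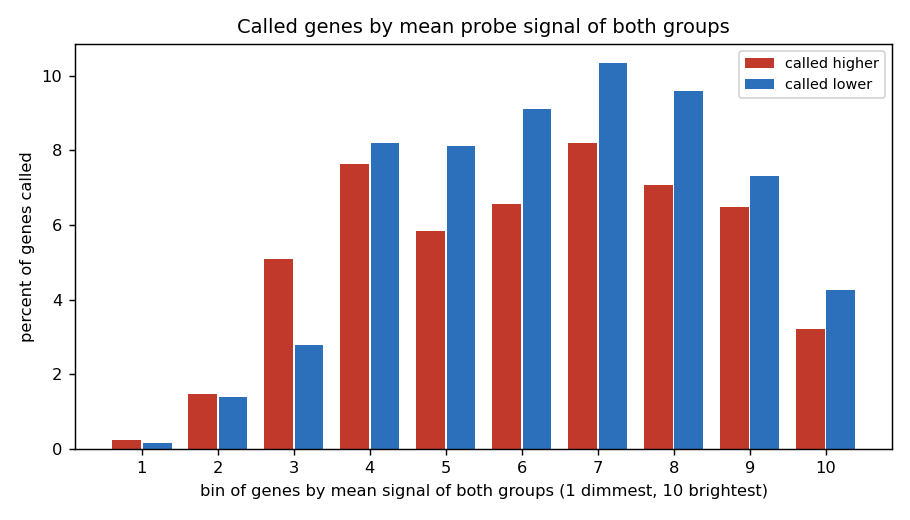
Percent of genes called higher (red) and lower (blue) in Zfy2_Eif2s3y oocytes in 10 equal bins of the genes by the mean signal of both groups, the dimmest at the left. The dimmest bin, near background, holds 3 genes called higher and 2 lower, and the brightest holds 39 higher and 52 lower.

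Some genes crossed the limit of detection altogether. Of the genes called higher, 70 were above background on all 3 Zfy2_Eif2s3y arrays and on no XX array, 32 of them stable. Besides Hic1, Gldc, Tlx1, Olfr461, Hspa1b and Kmt2a they include Bahcc1, with log2 intensities of 6.90, 6.80 and 6.45 in Zfy2_Eif2s3y oocytes, against 4.49, 4.70 and 4.53 in XX oocytes (at least 3.62-fold higher, adjusted p = 1.19e-07). Cd81, a tetraspanin that acts with Cd9 in sperm and egg fusion, had 7.11, 6.82 and 6.59 in Zfy2_Eif2s3y oocytes, against 4.67, 4.78 and 4.63 in XX oocytes (at least 3.93-fold higher, adjusted p = 0.00245), and Btaf1, which removes TBP from DNA, rose (at least 2.4-fold higher, adjusted p = 0.00804). Cd9 itself changed by -0.18 (adjusted p = 0.659). In the other direction, 35 of the genes called lower were above background on all XX arrays and on no Zfy2_Eif2s3y array, 16 of them stable. Shisal2b (at least 3.18-fold lower, adjusted p = 4.97e-05), Tenm3, a teneurin of neural wiring (at least 3.17-fold lower, adjusted p = 1.85e-04), and Tac2, a tachykinin precursor (at least 2.49-fold lower, adjusted p = 2.21e-04), were among them, with Rtn4rl1, Arhgap15, Tnfrsf21, Atg10 and Hdac9.

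Calls were found on all chromosomes compared, and other probes of the called genes mostly shared the direction of change but not the call. The share of genes called ran between 9.58% on chromosome 13 and 14.5% on the X chromosome, where 31 genes were higher and 32 lower of 435. For 610 called genes other probes had been kept, and 769 of those 928 probes (82.9%) changed in the same direction, 235 with a call of their own. For stable calls 316 of 362 other probes (87.3%) changed in the same direction, 135 with a call of their own. For genes not called the share in the same direction was 62.8%. Both probes with an opposite call belong to Nsd1, an H3K36 methyltransferase, named here because its probes disagree. Its brightest probe fell (-0.80, adjusted p = 0.025), a call that was not stable, while its other called probes gave 0.95 and 1.31.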

How the data were processed

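RNA of 18 pools of mouse GV oocytes had been measured on Illumina bead arrays. The deposited table, per the file headers, holds 1 non-normalized intensity and 1 detection p-value for each of 45281 probes and each array. The submitters' processing notes name GenomeStudio, and its version is not given in the sources used here. The authors' deposited series matrix holds linear intensity values whose distribution is nearly the same on all arrays, with the normalisation not given in the sources used here, and served only as an alternative.

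Intensities of all 18 arrays were corrected and quantile normalised with neqc of limma 3.58.1 in R 4.3.3, using the deposited detection p-values and an offset of 16. Probes with a detection p under 0.05 on at least 3 arrays were kept, 23951 in all. The platform annotation gave 1 symbol for 34885 probes, several for 18 and none for 10378, and 34807 symbols were updated by gene ID. The kept probe with the highest mean stood for each gene. Of 19057 named genes 12184 remained, and 4855 of these had other kept probes as well. The 6 group means were fitted in limma, which leaves 12 residual degrees of freedom, and p-values were adjusted by Benjamini-Hochberg over all genes. Arrays give no read depth, so their number limits the precision. A bound written as at least N-fold sets the brighter group's mean against the higher of the dim probe's own signal and the lowest detected signal on each array of the dim group. The fit was tested on simulated data.

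The comparison and the gene lists were chosen with earlier results of these data known. Genes were named by rule: the transgenes and their X-linked relatives, up to 4 stable calls a list by p, and the 8 largest stable changes in each direction among all genes, among the brightest 10% of genes in XX oocytes and among genes not detected in 1 group. The few genes outside this rule, such as further stable homeobox genes, were chosen after their values were seen. Alternatives changed the arrays used, the slide and replicate terms, the background correction, the detection filter and the choice of probe. Promoter sequences came from RefSeq (GRCm38.p6). One gene list is not reported here.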

Additional observations from a re-analysis of the deposited data

Results flagged for a closer look

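Probes without a gene symbol were left out of the gene-level comparison, and some carried a signal there. Of 4144 such probes kept, 180 were called higher and 165 lower in Zfy2_Eif2s3y oocytes, 8.33% in all. Among the probes called higher, 32 were above background on all 3 Zfy2_Eif2s3y arrays and on no XX array. The largest fitted log2 changes of these were 1.66 for ILMN_1222988, 1.58 for ILMN_2951499 and 1.47 for ILMN_2540553. What these probes measure was not tested.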

How the results depend on the processing

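The 1378 calls, 631 higher and 747 lower, became 723 (289 higher, 434 lower) with slide as a fixed block and 140 (77 higher, 63 lower) on slide 2 alone, where 3 arrays faced 1. That moved the share of calls that were higher to 55.0% on slide 2, against 45.8% in the pooled fit and 40% with the block. Leaving out each array in turn gave 787 to 1125 calls, 330 to 496 higher and 457 to 629 lower. Leaving out Zfy2_Eif2s3y replicate 1 or 2 or XX replicate 2 or 3 moved the total by over 1.5 times (809, 787, 809 and 880), and leaving out Zfy2_Eif2s3y replicate 3 so moved the rises alone (411). The other settings gave totals within 1.5 times, between 1066 with batch 1 arrays only and 1589 with the authors' series matrix.

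Same-numbered arrays of the groups did not deviate together (correlations 0.017, -0.029 and 0.051), so the numbers were not taken to pair them, and a fit with the replicate block made 1249 calls, 573 higher and 676 lower.

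Of 218 genes followed through every alternative, 168 lost their call on slide 2 alone, which leaves 2 residual degrees of freedom. The log2 change of Eif2s3y, represented by its undetected probe, was -0.00146 to 0.148 with 1 array left out, negative only without XX replicate 1, and was called, at 0.963, when the probes were averaged. Averaging a gene's probes ended the call of 12 others, among them Pfkfb2 (-0.47), Cyp11a1 (-0.18), Hsf5 (-0.20), Cux1 (-0.45) and Gab2 (0.27). Dim probes near background limit falls, and a bound replaces the fold there.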

Other observations

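Smaller gene groups outside the pathways above also held calls. Of 18 immediate early genes, 3 were called higher and 1 lower (22.2%), and the stable rise was Zfp36. Fos (0.63), Jun and Egr1 (0.23) were not called, and Jun was above background on no XX array. Among 7 genes of the 2-cell stage, 3 were called higher and none lower by limma (42.9%, against 11.3% of all genes). At an unadjusted p under 0.05 the counts were also 3 and 0. Hspa1b was the stable one, while Tcstv1 (-0.26) and Tcstv3 (0.02) were not called. Of 9 spermatid genes 1 was called higher and 2 lower (33.3%), none stable. Among 8 genes of the zona pellucida and egg surface, Cd81 was the call.

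Secreted proteins and proteases gave single large changes. Dcpp3, a secreted protein of salivary glands, averaged 7.25 ± 0.03 in Zfy2_Eif2s3y oocytes and 5.37 ± 0.35 in XX oocytes (log2 change 1.88 ± 0.24 SE, adjusted p = 1.61e-04), and S100a14, a calcium-binding protein of epithelia, rose (log2 change 1.35 ± 0.13 SE, adjusted p = 1.95e-05). Htra4 (-1.52, adjusted p = 2.83e-04) and Serpinb8, a serine protease inhibitor (-1.28, adjusted p = 7.98e-04), fell, and Timp3, an inhibitor of matrix metalloproteinases, rose (at least 1.6-fold higher, adjusted p = 0.00371). Of 99 protein phosphatase genes 4 were called higher and 5 lower (9.09%), and the receptor-type phosphatase Ptprk fell (log2 change -1.83 ± 0.33 SE, adjusted p = 0.00229). Other Ptprk probes gave -0.24 and -0.36, neither called. The nucleotide enzymes Cmpk2 (-1.38, adjusted p = 3.34e-04) and Upp1 (-1.13, adjusted p = 1.51e-04) fell, the 2 stable calls of 44 in that list. Of these 44, 1 was called higher and 2 lower (6.82%), below the 11.3% of all genes.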
